A study of Homo sapiens with 9 samples.

Results

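Recipient MDA-MB-231 cells given small extracellular vesicles (sEV) from drug-treated donor cells were compared, transcript by transcript, with recipient cells given no vesicles. MDA-MB-231 is an established human breast cancer line of triple-negative type, labelled wild type in every group. The group labelled TIS sEV (3 libraries) received vesicles from MDA-MB-231 donors that the labels call therapy-induced senescent. Those donors had been exposed to nocodazole, a drug that blocks microtubule assembly, at 100 ng/ml for 72 h, and were then moved to medium freed of exosomes for another 72 h. That conditioned medium gave the vesicles, by differential centrifugation. The group labelled No sEV (3 libraries) received none. Recipients of every group spent 72 h in 5% exosome-free medium before total RNA was taken. These are 6 of the 9 libraries of the series. The other 3, labelled Cont sEV, received vesicles of donors treated with the solvent DMSO; they helped to estimate the spread and are quoted as reference levels. Because No sEV recipients received no vesicles at all, an effect of any vesicles and an effect of their senescent source cannot be told apart in this comparison. The same holds for senescence of the donors and any further action of nocodazole on them. Whether replicates came from separate cultures is not in the labels, and p-values therefore reflect the spread among these libraries alone, possibly a technical one.

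Small extracellular vesicles are membrane-bound particles that cells release and other cells can take up, and they carry proteins, lipids and RNA. Senescent cells have left the cell cycle for good but stay metabolically active. They secrete a mixture of chemokines, interleukins, growth factors and proteases, known as the senescence-associated secretory phenotype, which is driven largely by NF-kB and AP-1 transcription factors and can act on neighbouring cells. Transcript levels were measured by RNA-seq and are given in TPM, the share of each gene in all transcripts, corrected for transcript length and scaled to a fixed total. Of 60719 genes listed, 13879 reached 1 TPM in at least 3 libraries and were tested on the log2(TPM + 1) scale. Fold changes are TIS sEV minus No sEV on that scale, means are ± SD with n = 3, and adjusted p-values are limma's after Benjamini-Hochberg adjustment over all tested genes at 0.05.

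The libraries were alike and held the transcripts of the labelled line. Between 21292 and 21834 genes were above 0 in the 6 libraries. Of 12 markers of MDA-MB-231, 11 were at or above 1 TPM in every library, among them the mesenchymal genes VIM, CD44 and AXL. The estrogen receptor gene ESR1 and the progesterone receptor gene PGR were below 1 TPM throughout, although 7 of 12 luminal breast markers, KRT19 the most abundant, reached that level. Summed luminal markers were at 625 to 644 TPM with No sEV and 626 to 665 TPM with TIS sEV. Markers of other cells were low or accounted for by 1 gene that cancer cells can express. Leukocyte markers summed to 154 to 158 TPM with No sEV and 155 to 165 TPM with TIS sEV, nearly all from CD68, with 3 of 10 at 0. Fibroblast markers summed to 11.8 to 13.03 and 11.9 to 15.9 TPM with 2 of 8 at 0, endothelial markers to 6.21 to 6.61 and 5.698 to 5.89 TPM with 1 of 7 at 0, and 9 markers of red cells and platelets all stayed below 1 TPM. TIS sEV replicates 2 and 3 stood apart from the rest, replicate 2 on the first principal component (19.5, the other 8 libraries from -8.201 to 5.198) and replicate 3 on the second (18.2, the others from -8.54 to 5.21).

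A single gene passed the test, 0.00721% of those tested, and it fell: CST1, which encodes cystatin SN, a secreted inhibitor of cysteine proteases. CST1 lies on chromosome 20 (GRCh38, 23747553 to 23751268, minus strand) in a cluster of closely related cystatin genes. CST4 (cystatin S) and CST2 (cystatin SA) of that cluster encode salivary-type cystatins as well. Their coding sequences were compared, from GENCODE 29 on GRCh38, because reads of one gene can match another. Over its whole coding sequence of 423 bases, CST4 differed from CST1 at 31 positions (identity 92.7%) and CST2 at 37 (91.3%). Of these, 26 and 27 lay in the first exon, which holds 228 of the coding bases. The longest run identical to CST1 was 152 bases in CST4 and 87 in CST2, so a read that falls within such a run cannot be assigned by its bases alone, and the 3 levels are uncertain to that extent.

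CST1 was among the abundant transcripts of these cells. Its level was 1098, 1038 and 1096 TPM in No sEV replicates 1, 2 and 3, and 838, 805 and 841 TPM in TIS sEV replicates 1, 2 and 3. All TIS sEV values lay below all No sEV values, and the Cont sEV libraries, at 1140.3, 1136 and 1161 TPM, lay above both. Its log2 fold change was -0.38 (SE 0.029, adjusted p = 0.00175), with a 95% interval from -0.44 to -0.32, a mean level 23.1% lower in TPM. It was -0.36 without TIS sEV replicate 2 and -0.39 without replicate 3, past the threshold both times. With a constant prior variance, in which all genes share 1 prior spread whatever their level, the gene did not pass (adjusted p = 0.0731).

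The other tested cystatin genes lay on the same side by mean, except for CST7. The cystatin list has 11 members, CST1 among them, of which 6 were tested. CST1 counts among the 5 with a lower mean with TIS sEV. The median log2 fold change of the 6, CST1 included, was -0.18 against 0.032 over all genes. The groups did not overlap in 3 of the 6, CST1, CST4 and CST2, all lower. Of all tested genes, 2.77% were lower without overlap and 11.3% higher. CST4 was at 276, 251 and 278 TPM with No sEV and 213, 213 and 224 TPM with TIS sEV, a log2 fold change of -0.31 (SE 0.045, adjusted p = 0.13). CST2 was at 25.7, 26.6 and 24.97 and 22.5, 20.5 and 21.1 TPM, with -0.26 (SE 0.054, adjusted p = 0.298). In both genes each TIS sEV library was below each No sEV library, and both are close to CST1 in sequence, as given above. CST3, which encodes the widely expressed cystatin C, was at 502, 470.2 and 466 TPM against 472, 429 and 447 TPM, where the groups overlapped. The intracellular inhibitor CSTB was at 372 ± 6.44 against 379 ± 5.797 TPM and CST7 at 9.53 ± 1.79 against 8.97 ± 0.449 TPM (TIS sEV first). CST5, CST6, CST9, CST11 and CSTA missed the filter.

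**Figure D1:**
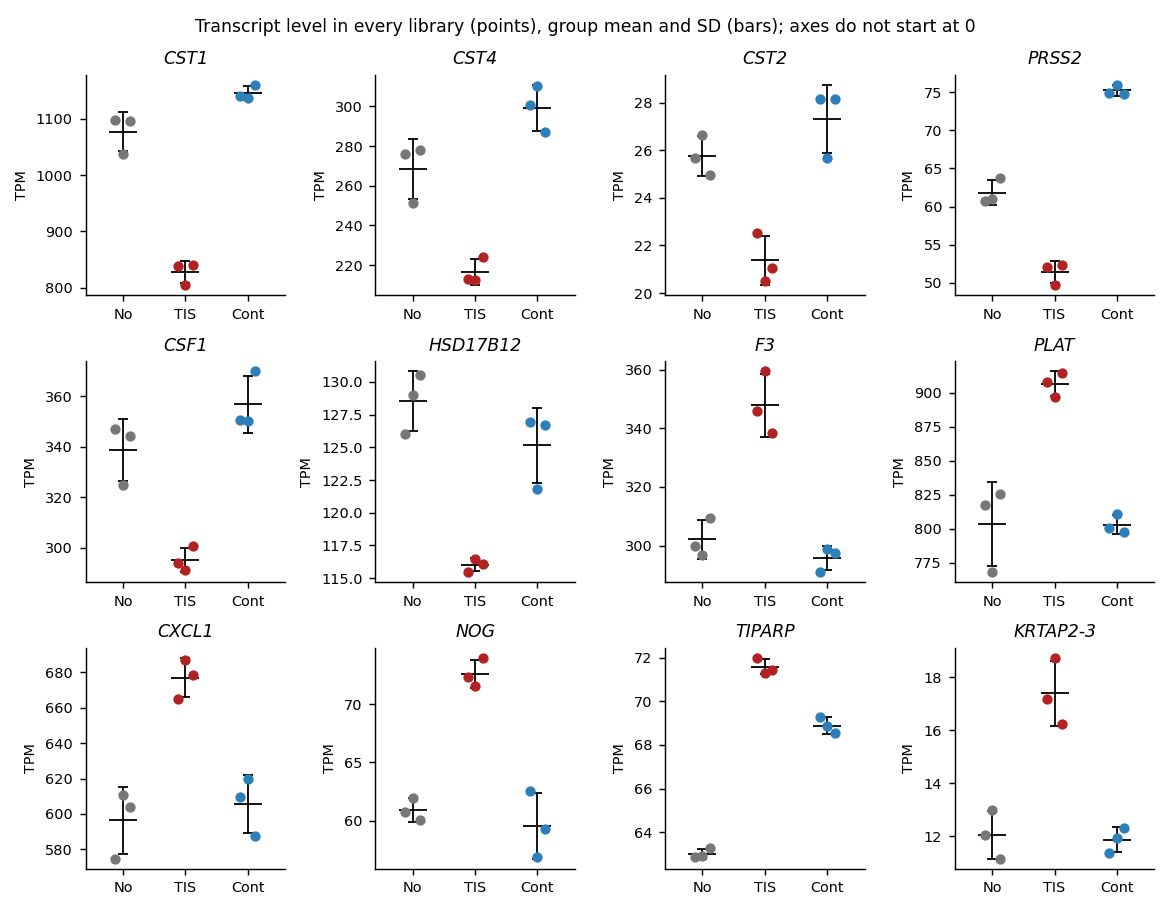
Transcript level in TPM (vertical axes, which do not start at 0) of 12 genes in each library; points are libraries, horizontal bars the group mean and error bars the SD of 3 libraries, for No sEV, TIS sEV and Cont sEV. In each panel the 3 TIS sEV points lie wholly below or wholly above the 3 No sEV points; of the 12, only CST1 passed the test.

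None of the proteases that cystatins inhibit passed the test. Cysteine cathepsins are lysosomal proteases that can also act outside the cell. The list holds 11 of them and the related protease gene LGMN (legumain). All 12 were tested, 9 with a higher mean, or 3 after rescaling of the libraries by median ratios, which brought the median of all genes from 0.032 to 0.00125 and left 7034 of the 13879 with a higher mean. The list's median was 0.0074, and each of the 12 intervals lay within a 1.5-fold change. CTSL was at 175 ± 1.56 against 174 ± 3.28 TPM and CTSB at 125 ± 1.29 against 124 ± 4.21 TPM, TIS sEV first. CTSC, which activates serine proteases of immune cells, was the member whose groups were apart, at 273, 273 and 272 TPM with TIS sEV and 281, 283 and 277 TPM with No sEV, a log2 fold change of -0.041 (SE 0.022, adjusted p = 0.684).

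PRSS2 had the second smallest p of all tested genes. It encodes anionic trypsinogen, the inactive form of a digestive serine protease that tumours can also make. Its level was 60.8, 61.003 and 63.7 TPM with No sEV and 52.1, 49.7 and 52.4 TPM with TIS sEV, with no overlap, and 74.9, 75.99 and 74.8 TPM with Cont sEV. The log2 fold change was -0.26 (SE 0.034, adjusted p = 0.13), and -0.28 without TIS sEV replicate 3. Its relative PRSS3 was at 67.995 ± 2.697 against 69.2 ± 4.06 TPM, and F2RL1, which encodes the trypsin-activated receptor PAR2, at 194 ± 5.37 against 189.8 ± 7.099 TPM (TIS sEV first), both overlapping. Of the 12 tested members of the list of trypsins, their inhibitors and receptors, 6 had a higher and 6 a lower mean. Only PRSS2 among them did not overlap between the groups.

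Genes of blood clotting and plasminogen activation had higher means with TIS sEV. This system joins tissue factor, which starts clotting, with the activators that turn plasminogen into the protease plasmin and with their serpin inhibitors. Of 13 members, all tested, 12 had a higher mean, where 66.7% of all genes did, and 9 did after rescaling. None passed, and 5 did not overlap, all higher, where 11.3% of all tested genes were higher without overlap and 2.77% lower. The median log2 fold change was 0.053, or 0.086 without TIS sEV replicate 3. F3, the tissue factor gene, was at 300, 297 and 309 TPM with No sEV and 346, 359 and 338 TPM with TIS sEV, a log2 fold change of 0.20 (SE 0.029, adjusted p = 0.13). The Cont sEV libraries, at 291, 299 and 297 TPM, lay with No sEV. PLAT, which encodes tissue plasminogen activator, was at 817, 768 and 826 against 908, 897 and 915 TPM, with 0.17 (SE 0.028, adjusted p = 0.172). For the activator urokinase, PLAU, the levels were 229.8 ± 2.68 against 223 ± 1.24 TPM, apart by a small margin, and for its receptor PLAUR 168 ± 6.99 against 164 ± 3.97 TPM (TIS sEV first). On the same side, SERPINB2, which encodes PAI-2, an inhibitor of these activators, was at 94.5, 94.7 and 88.4 against 112, 108 and 104 TPM with 0.22 (SE 0.039, adjusted p = 0.181). In SERPINB2 the lowest TIS sEV library exceeded the highest No sEV library. The member with a lower mean was TFPI2, a Kunitz-type inhibitor, at 179 ± 2.01 against 186 ± 6.29 TPM.

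The 250 bases before the start of F3 are shown because they hold 2 matches to the AP-1 motif TGANTCA (capitals), at -223 and -210 from the start. They are from RefSeq on GRCh38.p14, minus strand, at chr1:94541760-94542009. On either strand, 6.57% of 35116 promoters of this length hold the motif, which reads much the same on both.
F3: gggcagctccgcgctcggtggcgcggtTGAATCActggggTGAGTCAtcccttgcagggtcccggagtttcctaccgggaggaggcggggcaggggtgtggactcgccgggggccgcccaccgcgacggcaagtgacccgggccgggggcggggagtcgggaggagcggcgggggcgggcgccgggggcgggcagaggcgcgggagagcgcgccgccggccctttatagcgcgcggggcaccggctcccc
Binding of AP-1 there was not measured in these data.

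Transcripts of secreted signals that senescent cells typically release were higher on average in the recipient cells. Of 41 members of the secretory list, 31 were tested and 27 had a higher mean, 24 after rescaling by median ratios. Their median log2 fold change was 0.083, 0.051 after rescaling, beside 0.032 and 0.00125 over all genes. The groups did not overlap in 14 members higher with TIS sEV and 1 lower, and none passed. Over all tested genes, 66.7% had a higher mean, 11.3% were higher without overlap and 2.77% lower without overlap. Without TIS sEV replicate 2 the median was 0.092 with 27 higher, and without replicate 3 0.081 with 28 higher. In each of the 3 TIS sEV libraries the median member lay 0.0852 to 0.101 above the No sEV mean, against 0.0225 to 0.041 for the median of all tested genes. In the Cont sEV libraries it lay 0.0253 to 0.0494 above.

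Among the chemokines, CXCL1, a neutrophil attractant that signals through CXCR2, was at 575, 611 and 604 TPM with No sEV and 665, 687 and 678 TPM with TIS sEV, a log2 fold change of 0.18 (SE 0.03, adjusted p = 0.179). Its near relatives CXCL2 and CXCL3 lay on the same side, CXCL2 at 161, 169 and 170 against 183, 206 and 186 TPM and CXCL3 at 78.9, 85.9 and 86.1 against 89.7, 101 and 96.6 TPM. All 3 genes were without overlap and highest in TIS sEV replicate 2. The interleukin 8 gene CXCL8, far more abundant, did overlap, at 1501, 1543 and 1397 against 1556, 1535 and 1430.4 TPM. Both interleukin 1 genes, upstream inducers of the secretory programme, were without overlap. IL1A was at 139, 146 and 140.2 against 159, 162 and 151 TPM, with 0.15 (SE 0.033, adjusted p = 0.318), and IL1B at 238, 244 and 251 against 273, 266 and 264 TPM, with 0.13 (SE 0.03, adjusted p = 0.318). IL6, the best known interleukin of senescent cells, was at 169, 166 and 175 against 166, 186 and 175 TPM, which overlapped, with 0.045 (SE 0.039, adjusted p = 0.809). Of the interleukin 6 family, LIF was at 54.8 ± 1.95 against 47.3 ± 1.91 TPM and IL11 at 356 ± 11.8 against 331 ± 4.74 TPM, TIS sEV first, both without overlap.

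The colony-stimulating factors did not lie on 1 side. CSF1, the growth factor of macrophages, was at 347, 325 and 344 TPM with No sEV and 294, 291 and 301 TPM with TIS sEV, a log2 fold change of -0.20 (SE 0.033, adjusted p = 0.179) and the lowest of the secretory list. Cont sEV libraries were at 350.5, 350.3 and 369.9 TPM. CSF2, which encodes GM-CSF, was at 358, 352 and 349 against 397, 392 and 378 TPM, with 0.14 (SE 0.028, adjusted p = 0.271). CSF3, which encodes G-CSF, was at 101 ± 4.99 against 99.3 ± 2.31 TPM (TIS sEV first), with overlap. The angiogenic factor VEGFA was at 312, 308 and 337 against 349, 411 and 346 TPM without overlap, highest in TIS sEV replicate 2. Its Cont sEV mean of 368 TPM was at the level of TIS sEV. TGFB1 was at 43.98 ± 0.676 against 40.9 ± 1.44 TPM and INHBA, an activin subunit gene, at 58.1 ± 3.16 against 52.1 ± 2.01 TPM, again TIS sEV first and apart.

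The 250 bases before the start of CXCL1 hold 1 match to the NF-kB motif (capitals; GGG, any 2 bases, then TTTCC), whose first base is at -79. They are printed from RefSeq on GRCh38.p14, plus strand, at chr4:73869143-73869392, and 1.73% of the 35116 promoters hold this motif on either strand.
CXCL1: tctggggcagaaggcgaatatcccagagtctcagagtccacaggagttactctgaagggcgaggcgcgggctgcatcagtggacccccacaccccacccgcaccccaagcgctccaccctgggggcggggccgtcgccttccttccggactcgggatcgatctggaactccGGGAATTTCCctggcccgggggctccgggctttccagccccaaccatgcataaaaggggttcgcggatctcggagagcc
NF-kB binding was not measured here.

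**Figure D2:**
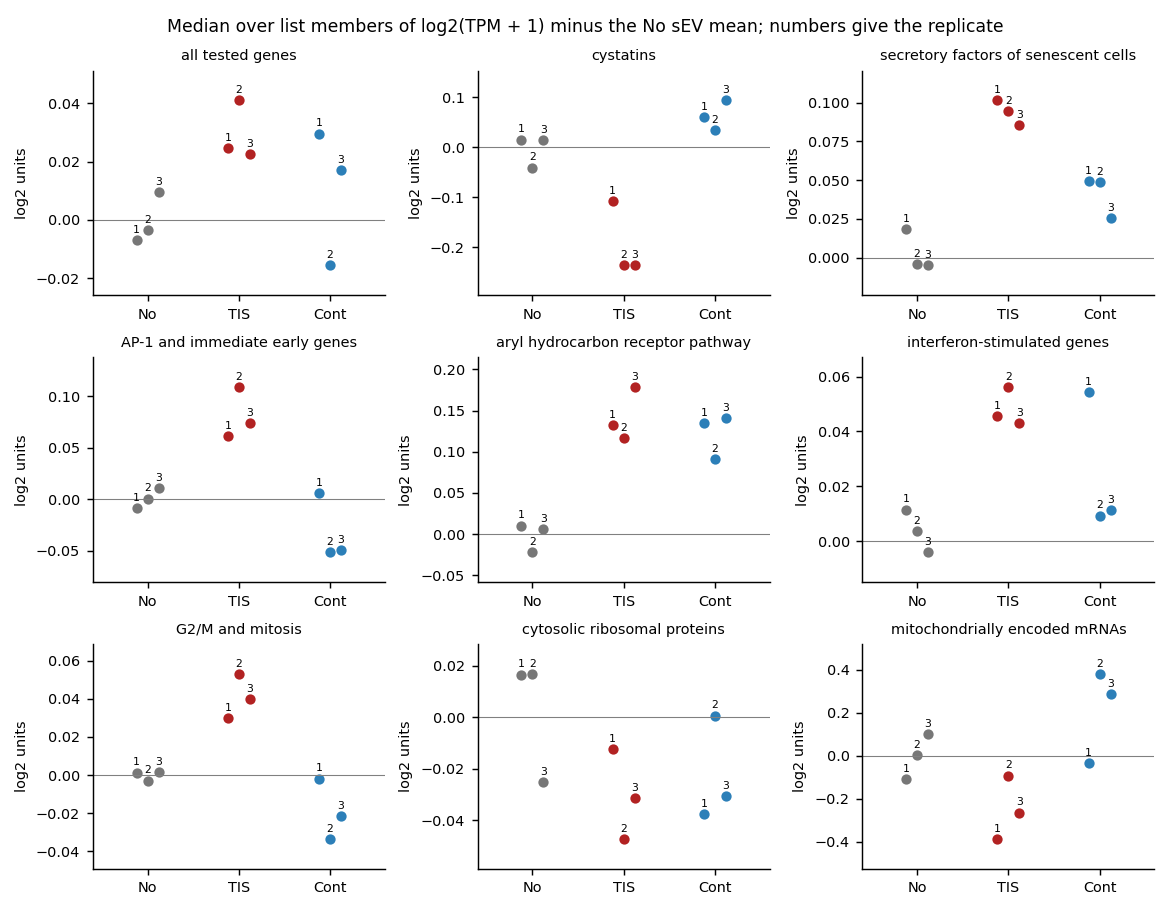
Median over the tested members of a list of log2(TPM + 1) minus the No sEV mean of each gene (vertical axes, log2 units, scaled per panel), for each library of No sEV, TIS sEV and Cont sEV, with replicate numbers beside the points. The secretory median is 0.0852 to 0.101 in the TIS sEV libraries, above the No sEV libraries, while all tested genes are at 0.0225 to 0.041.

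None of the NF-kB pathway transcripts passed the test. NF-kB subunits sit in the cytoplasm bound to inhibitors and move to the nucleus on stimulation, where they also induce their own inhibitors. Of 21 tested members of 22, 15 had a higher mean (66.7% of all tested genes did) and 12 after rescaling. Without overlap 3 were higher and 2 lower, where 11.3% and 2.77% of all tested genes were. The subunit genes RELA and NFKB1 were at 105 ± 2.67 against 104 ± 2.201 TPM and 38.6 ± 1.48 against 37.4 ± 2.75 TPM, TIS sEV first. The feedback inhibitor NFKBIA was lower without overlap, at 217, 216 and 214 TPM with No sEV and 208, 211 and 210.4 TPM with TIS sEV, with -0.04 (SE 0.023, adjusted p = 0.71), as was the adhesion gene ICAM1 at 261 ± 2.22 against 272 ± 6.69 TPM. BIRC3, an inhibitor of apoptosis induced by NF-kB, was at 103, 103 and 102 against 107, 128 and 109 TPM, where TIS sEV replicate 2 was well above the rest.

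AP-1 is a dimer of FOS and JUN family proteins, and some genes of this group, FOS and EGR1 among them, respond within minutes to growth factors. Of 26 members 22 were tested, 19 with a higher mean (66.7% of all tested genes) and 17 after rescaling. Without overlap 7 were higher and none lower, where 11.3% and 2.77% of all tested genes were. The median was 0.074. FOSL1, which encodes the FOS family member FRA-1 that prevails in mesenchymal breast cancer lines, was at 411, 404 and 395 TPM with No sEV and 453, 436 and 437 TPM with TIS sEV, with 0.13 (SE 0.027, adjusted p = 0.282). JUND was at 125, 139 and 119.6 against 139, 143 and 165 TPM, where replicate 3 of TIS sEV stood highest, and JUN at 104, 107 and 103 against 108, 114 and 117 TPM. FOS and EGR1, the classic early responders, had lower means with overlap, FOS at 15.5 ± 1.699 against 17.1 ± 1.18 TPM and EGR1 at 45.4 ± 2.57 against 49.4 ± 2.64 TPM. All of these were adjusted p = 0.282 or above.

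The list of EGFR ligands and MAPK feedback genes is read against 66.7% of all tested genes with a higher mean and 11.3% higher without overlap. In this list, 22 of 29 tested members of 32 had a higher mean, 15 after rescaling, and 6 were higher without overlap (20.7%), 1 lower. DUSP10, a phosphatase of the stress kinases p38 and JNK, was at 56.6, 54.8 and 54.7 TPM with No sEV and 64.01, 63.5 and 63.9 TPM with TIS sEV, with 0.20 (SE 0.037, adjusted p = 0.199). Its Cont sEV libraries were close to the latter, at 64.02, 58.9 and 62.4 TPM. DUSP5, a nuclear phosphatase of ERK, was at 158 ± 1.65 against 149 ± 2.45 TPM and the EGFR ligand gene HBEGF at 89.2 ± 3.34 against 83.2 ± 1.65 TPM, both apart (TIS sEV first). DUSP6 and EGFR overlapped, at 321 ± 5.91 against 318 ± 2.69 TPM and 111 ± 4.74 against 108 ± 1.67 TPM.

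YAP and TAZ are coactivators that bind TEAD proteins and respond to cell shape and density. All 28 members of their list were tested, 18 with a higher mean (66.7% of all tested genes) and 15 after rescaling. Without overlap 4 were higher and 2 lower, where 11.3% and 2.77% of all tested genes were. Of the known targets, these were apart: CCN1 at 1578, 1593 and 1663 TPM with No sEV and 1718, 1788 and 1715 TPM with TIS sEV, and ANKRD1 at 647, 678 and 665 and 699, 714 and 706 TPM. Their log2 fold changes were 0.11 (SE 0.028, adjusted p = 0.419) and 0.09 (SE 0.025, adjusted p = 0.469). The stress-inducible GADD45A was at 71.8, 78.6 and 74.5 against 83.4, 89.6 and 84.8 TPM. TEAD4, one of the DNA-binding partners, was lower without overlap at 17.1 ± 1.33 against 19.6 ± 1.14 TPM, and YAP1 itself was at 107 ± 2.74 against 104 ± 1.05 TPM with overlap (TIS sEV first).

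In the TGF-beta and BMP list the gene of smallest p was NOG. It encodes noggin, a secreted protein that binds BMP ligands and keeps them from their receptors. NOG was at 60.8, 62.001 and 60.1 TPM with No sEV, 72.3, 71.6 and 73.9 TPM with TIS sEV and 62.5, 56.9 and 59.4 TPM with Cont sEV, so that TIS sEV was above both other groups without overlap. Its log2 fold change against No sEV was 0.25 (SE 0.039, adjusted p = 0.137). The ligand BMP4 was at 52.8 ± 5.99 against 53.5 ± 1.27 TPM and the receptor BMPR1A at 18.9 ± 1.93 against 18.9 ± 0.159 TPM, both overlapping. Of the SMAD targets, PMEPA1, an inhibitor of TGF-beta signalling, was apart at 14.3, 14.4 and 14.4 against 15.2, 17.5 and 16.96 TPM, while ID1 overlapped at 8.35 ± 1.12 against 8.06 ± 0.4199 TPM. Over the list, 20 of 34 tested members of 41 had a higher mean, 14 after rescaling, where 66.7% of all tested genes had a higher mean. In 5 of the 34 TIS sEV was higher without overlap, against 11.3% of all tested genes.

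Genes of the aryl hydrocarbon receptor, a ligand-activated transcription factor that induces enzymes of xenobiotic metabolism, lay highest of the signalling lists by median, at 0.13, or 0.10 after rescaling. Of 10 members 7 were tested, 6 with a higher mean under either scaling, and the same number were higher without overlap. Over all tested genes, 66.7% had a higher mean and 11.3% were higher without overlap. TIPARP, a target that feeds back on the receptor, was at 62.9, 62.9 and 63.3 TPM with No sEV and 71.96, 71.3 and 71.4 TPM with TIS sEV, with 0.18 (SE 0.027, adjusted p = 0.136). CYP1A1, the classic target, was at 8.79, 9.15 and 10.5 against 11.8, 11.3 and 12.1 TPM, with 0.28 (SE 0.092, adjusted p = 0.538), and CYP1B1 at 7.595, 6.44 and 8.22 against 8.22, 10.9 and 9.67 TPM. NQO1, shared with the NRF2 list, was at 116, 117 and 112 against 124, 125 and 126 TPM, with 0.12 (SE 0.03, adjusted p = 0.419). In all 4 genes the lowest TIS sEV library exceeded the highest No sEV library, in CYP1B1 narrowly. The receptor gene AHR was at 49.5 ± 1.65 against 46.6 ± 0.925 TPM. The Cont sEV means of TIPARP, CYP1A1 and AHR, 68.9, 11.3 and 52.3 TPM, were also above those of No sEV. The median member of the list lay 0.134, 0.091 and 0.141 above the No sEV mean in the Cont sEV libraries. In the TIS sEV libraries it lay 0.132, 0.117 and 0.178 above, so the list median was above the No sEV mean in both groups. No member passed in either comparison with No sEV.

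None of the regulators of senescence and cell-cycle arrest passed the test in the recipients. CDKN1A, which encodes the arrest protein p21, was at 116, 111 and 111 TPM with No sEV and 118, 115 and 116 TPM with TIS sEV, with 0.049 (SE 0.032, adjusted p = 0.738) and a 95% interval from -0.023 to 0.12. CDKN2A, which encodes p16, was listed at 0 in all 6 libraries, and CDKN2B missed the filter. GADD45B was at 73.3 ± 1.44 against 70.8 ± 3.005 TPM, and GLB1, which encodes the enzyme stained as senescence-associated beta-galactosidase, was at 70.8 ± 1.08 against 68.5 ± 3.203 TPM, TIS sEV first. The nuclear lamina gene LMNB1, which is lost in senescent cells, was at 53.8, 51.1 and 56.9 against 56.2, 53.7 and 54.7 TPM. Of 26 tested members of 29, 22 had a higher mean (66.7% of all tested genes did), 17 after rescaling. In 4 of the 26 TIS sEV was higher without overlap, against 11.3% of all tested genes.

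No proliferation gene passed the test. Both proliferation lists are read against all tested genes, 66.7% with a higher mean, 11.3% higher without overlap and 2.77% lower without overlap. The G1/S and replication list, 44 genes, held 35 with a higher mean and 22 after rescaling. Before rescaling, 5 were higher without overlap, near the share over all genes. In 1 gene the groups were apart on the lower side, GINS2, which encodes a subunit of the replicative helicase complex, at 8.55 ± 0.2801 against 9.304 ± 0.226 TPM (TIS sEV first). CDK2, the kinase that drives entry into S phase, had the smallest p, at 64.6, 58.1 and 65.6 TPM with No sEV and 72.5, 71.9 and 75.3 TPM with TIS sEV, with 0.22 (SE 0.049, adjusted p = 0.318). Among the 37 mitotic genes 30 were higher by mean, or 19 after rescaling, and 8 were higher without overlap. UBE2C, which supports exit from mitosis, was at 223, 235 and 228 against 245, 245 and 245 TPM, with 0.10 (SE 0.025, adjusted p = 0.409), and the spindle checkpoint kinase gene BUB1 at 69.98, 70.4 and 69.7 against 75.1, 74.1 and 74.2 TPM. MKI67, the usual proliferation marker, was at 38.1, 38.6 and 40.8 against 40.8, 43.03 and 42.9 TPM. Its log2 fold change of 0.11 (SE 0.084, adjusted p = 0.775) had a 95% interval from -0.08 to 0.30. All 44 and all 37 intervals lay within a 1.5-fold change.

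Interferon-stimulated genes, which antiviral signalling induces, had a median of 0.054. Of 42 genes 39 were tested, 30 with a higher mean (66.7% of all tested genes) and 24 after rescaling. Without overlap 9 were higher and 2 lower, where 11.3% and 2.77% of all tested genes were. IFI44 was at 63.6, 65.1 and 59.97 TPM with No sEV and 70.2, 75.7 and 72.6 TPM with TIS sEV, with 0.21 (SE 0.045, adjusted p = 0.298). OASL, a relative of the antiviral OAS enzymes, was at 29.4, 26.8 and 29.1 against 33.2, 31.4 and 32.7 TPM, IFIT3 at 86.9, 91.3 and 88.4 against 95.7, 101 and 96.6 TPM, and ISG15, a ubiquitin-like modifier, at 307, 279.9 and 283 against 309, 315 and 327 TPM. These 4 were without overlap. For OASL and IFIT3 the Cont sEV means, 32.4 and 97.96 TPM, lay near those of TIS sEV (32.4 and 97.8 TPM). IFITM3, which blocks virus entry at endosomes, was lower without overlap, at 566 ± 3.605 against 591 ± 5.24 TPM.

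Ribosomal protein mRNAs and mitochondrially encoded mRNAs were the abundant groups with lower means. Both groups are read against all tested genes, of which 66.7% had a higher mean and 2.77% were lower without overlap. Of 79 cytosolic ribosomal protein genes, all tested, 61 had a lower mean and 18 were lower without overlap, none higher. Their median log2 fold change was -0.033, which is small. It was -0.0042 after quantile normalization and -0.066 after rescaling by median ratios. RPS13 was at 1569, 1653 and 1629 TPM with No sEV and 1515, 1529 and 1464 TPM with TIS sEV, with -0.11 (SE 0.028, adjusted p = 0.441), and RPL27 at 2704, 2752 and 2727 against 2587, 2501 and 2552 TPM. All 13 mRNAs of the mitochondrial genome, which encode subunits of the respiratory chain, had a lower mean, with a median of -0.23, and 5 did not overlap. MT-CYB was at 365, 384 and 415 against 269, 326 and 303 TPM, with -0.37 (SE 0.11, adjusted p = 0.499), and MT-ND3 at 1368, 1478 and 1576 against 1172, 1275 and 1100 TPM, with -0.32 (SE 0.086, adjusted p = 0.467). The share of all TPM that they took overlapped, at 2.04%, 2.21% and 2.41% with No sEV and 1.69%, 2.07% and 1.83% with TIS sEV. That difference gave p = 0.2 in a two-sided exact permutation test, where 0.1 is the smallest p that 3 against 3 can give. Of 43 nuclear-encoded genes of the same chain, 24 had a higher mean, or 12 after rescaling, with none past the test and a median of 0.001.

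**Figure D3:**
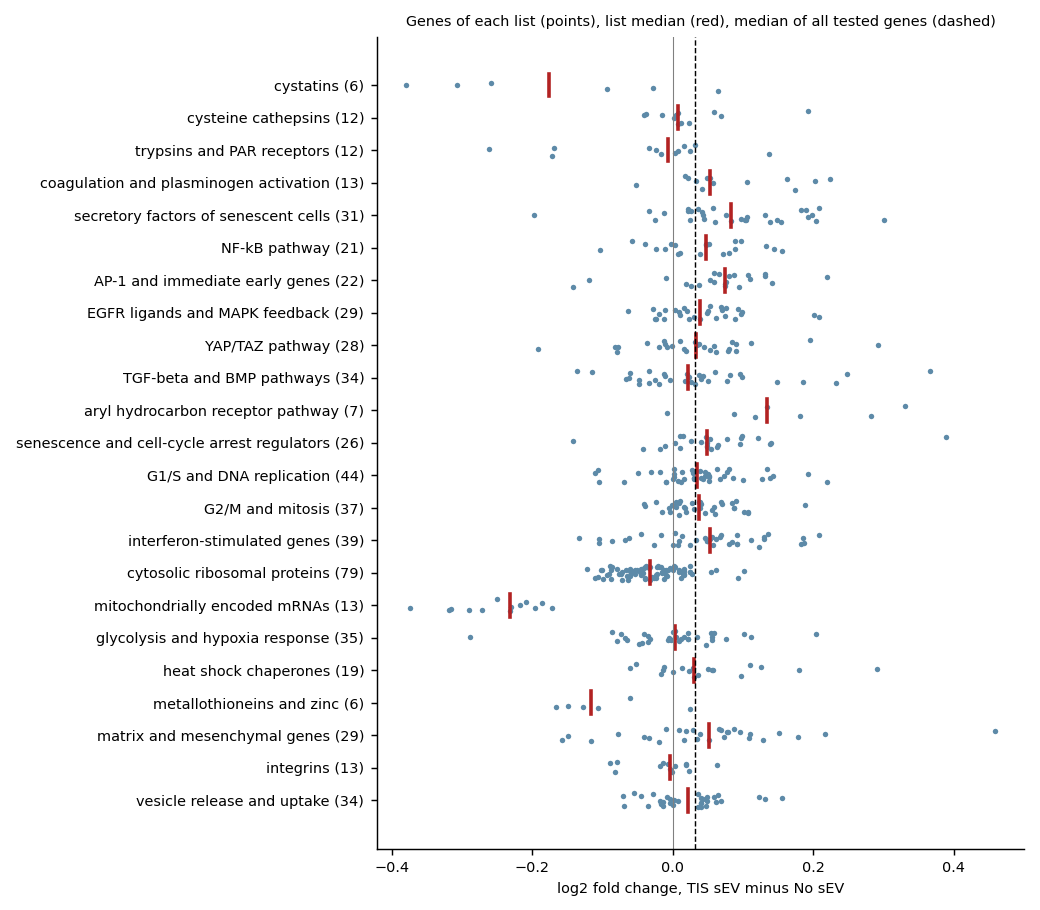
Log2 fold change, TIS sEV minus No sEV (horizontal axis), of each tested gene in 23 lists (points; number of genes in brackets), with each list's median (red bar) and the median of all tested genes (dashed line, 0.032). Mitochondrially encoded mRNAs lie wholly below 0, with a median of -0.23, and the secretory list has its median at 0.083.

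Heat shock chaperones fold proteins and are induced by unfolded ones. Of 19 tested, 14 had a higher mean (66.7% of all tested genes did), 9 after rescaling. Without overlap 8 were higher and 1 lower, where 11.3% and 2.77% of all tested genes were. HSPA1A and HSPA1B, near-identical copies of the inducible HSP70 gene whose reads are hard to separate, were at 145 ± 4.002 against 128 ± 7.84 TPM and 350.2 ± 2.78 against 325 ± 12.4 TPM, TIS sEV first. The co-chaperone gene DNAJB4 was at 17.4, 20.6 and 18.6 TPM with No sEV and 23.2, 23.8 and 22.9 TPM with TIS sEV, with 0.29 (SE 0.062, adjusted p = 0.298). HSPA8, the constitutive form, was lower without overlap at 1639 ± 13.4 against 1698 ± 20.6 TPM. Metallothioneins, small proteins that bind zinc and copper, were tested for 4 genes, 3 of them with a lower mean (MT1E, MT1X and MT2A) and all 4 after rescaling. With the regulator gene MTF1 and the exporter gene SLC30A1, both of lower mean, the median of the list was -0.12. MT1X was at 755, 763 and 777 against 717, 695 and 691 TPM, with -0.13 (SE 0.026, adjusted p = 0.282), and SLC30A1, which moves zinc out of the cell and shares the regulator MTF1, at 5.51 ± 0.0786 against 6.22 ± 0.309 TPM. MT2A, the most abundant, overlapped at 5049, 4660.2 and 4747 against 4960.5, 4459.8 and 4444 TPM.

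Lists of the ER stress response, NRF2 targets and sterol synthesis had medians of 0.014, 0.014 and 0.0059, below that of all genes, and each turned negative after rescaling. PPP1R15A, which restores translation after stress, was at 332, 326 and 345 against 354, 358 and 360.04 TPM with 0.10 (SE 0.027, adjusted p = 0.488). HSD17B12, an enzyme of fatty acid elongation, had the smallest p of the sterol and fatty acid list, at 126, 129 and 131 TPM with No sEV and 115, 116 and 116 TPM with TIS sEV, with -0.15 (SE 0.028, adjusted p = 0.25). All its TIS sEV values were below all its No sEV values. Of 35 tested glycolysis and hypoxia genes, 19 had a higher mean and 10 after rescaling. PAWR, a pro-apoptotic gene, was at 91.8, 85.5 and 83.6 against 99.7, 100.2 and 99.6 TPM, with 0.20 (SE 0.042, adjusted p = 0.298), and PMAIP1, which encodes the BH3-only protein NOXA, at 164, 166 and 164 against 174, 190.1 and 186 TPM. Of the 33 tested genes of the apoptosis machinery, 24 had a higher mean and 16 after rescaling. Over all tested genes, 66.7% had a higher mean.

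No gene of the matrix, integrin, metalloproteinase or cytoskeleton lists passed. Of 29 tested matrix and mesenchymal genes of 39, 21 had a higher mean (66.7% of all tested genes did), 17 after rescaling. In 8 of the 29 TIS sEV was higher without overlap, against 11.3% of all tested genes. CD44, the hyaluronan receptor, was at 451, 428 and 456 TPM with No sEV and 514, 489 and 508 TPM with TIS sEV, with 0.18 (SE 0.035, adjusted p = 0.271). THBS1, which encodes the matrix protein thrombospondin 1, was at 107, 107 and 107 against 117, 119 and 120.2 TPM, with 0.15 (SE 0.03, adjusted p = 0.271). FN1, the fibronectin gene, had a lower mean with overlap, at 113 ± 7.43 against 123 ± 1.598 TPM. Of integrin subunits, the receptors for these proteins, 5 of 13 tested had a higher mean and 1 after rescaling. MMP3, which encodes the protease stromelysin 1, was at 49.97, 51.9 and 49.9 against 59.8, 55.3 and 55.5 TPM and its Cont sEV mean was 57.1 TPM. TLN1, which encodes talin, the link between integrins and actin, was at 150.1, 145 and 145 against 167, 160.2 and 168 TPM, with 0.17 (SE 0.039, adjusted p = 0.328). MARCKSL1, a regulator of actin, was lower without overlap at 80.4, 79.4 and 77.6 against 75.99, 69.7 and 73.1 TPM.

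Among keratins and related genes, KRTAP2-3, which encodes a keratin-associated protein of hair, had the third smallest p of all tested genes. It was at 12.04, 12.98 and 11.2 TPM with No sEV, 17.2, 18.7 and 16.3 TPM with TIS sEV and 11.4, 11.9 and 12.3 TPM with Cont sEV. The TIS sEV libraries were above both others without overlap, and the log2 fold change was 0.49 (SE 0.071, adjusted p = 0.13). KRTAP2-3 has close relatives beside it on chromosome 17, among which reads can be shared. The hair keratin gene KRT81 was at 32.7, 31.7 and 31.3 against 37.1, 34.4 and 34.6 TPM. Of 24 tested genes of epithelial junctions and keratins, 21 had a higher mean (66.7% of all tested genes did) and 13 after rescaling.

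Of genes of vesicle release and uptake, 20 of 34 tested had a higher mean (58.8%, against 66.7% of all tested genes), 17 after rescaling. The groups were apart in 8 higher and 1 lower (23.5% higher, against 11.3%). RAB5A, a GTPase of early endosomes, was at 93.7, 96.7 and 94.4 TPM with No sEV and 105, 110.5 and 102 TPM with TIS sEV, with 0.16 (SE 0.04, adjusted p = 0.425). The vesicle tetraspanin gene CD63 was at 632, 632 and 629.9 against 625, 606 and 641 TPM, and CD82, another tetraspanin gene, at 80.5, 77.3 and 78.2 against 85.3, 87.02 and 86.3 TPM. Tubulin genes numbered 14 tested with 9 at a higher mean, 4 after rescaling or without TIS sEV replicate 3. The gamma-tubulin gene TUBG2 was at 16.5, 13.7 and 15.2 against 17.6, 19.7 and 17.4 TPM, apart, with 0.25 (SE 0.074, adjusted p = 0.495).

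Outside the lists, the genes of smallest p on the higher side included CDK5RAP1, which encodes an enzyme that modifies mitochondrial tRNAs, at 38.9, 37.6 and 41.3 TPM with No sEV and 46.5, 47.6 and 46.7 TPM with TIS sEV, with 0.25 (SE 0.042, adjusted p = 0.179). G0S2, which encodes an inhibitor of the lipase ATGL, was at 774, 770.4 and 748 against 864, 822 and 876 TPM, with 0.16 (SE 0.029, adjusted p = 0.199). On the lower side, ABHD17C, which encodes a depalmitoylating enzyme, was at 33.9, 39.4 and 35.1 against 29.98, 28.9 and 28.4 TPM, GTF3C6, a subunit gene of transcription factor IIIC, at 45.4, 48.5 and 47.7 against 41.1, 40.9 and 40.2 TPM, and POLR2L, a subunit gene of RNA polymerases, at 198, 186 and 191 against 169.6, 166 and 176 TPM. None of these groups overlapped and none passed (adjusted p from 0.179 to 0.298). The processed pseudogene RPS26P19 was listed at 0 in all 3 TIS sEV libraries and at 5.55, 5.43 and 3.53 TPM with No sEV. In Cont sEV it was at 0, 2.85 and 0 TPM, its adjusted p was 0.181, and its reads can be shared with RPS26, so the zeros are uncertain.

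The size of change that the data allowed was small for well expressed genes. The 95% interval of the log2 fold change lay within a 1.5-fold change in either direction for 12746 tested genes, 91.8%. Among the 3387 genes averaging 50 TPM or more this share was 99.7%, and no such gene had a fold change above 1.5 upwards, while 1 had one downwards. That gene, the processed pseudogene ENSG00000235959, singled out after its values were seen, was listed at 0 in TIS sEV replicate 3 and at 52.98 and 87.4 TPM in the other TIS sEV libraries, with 68.4, 84.1 and 81.5 TPM in No sEV. Among 7100 genes between 5 and 50 TPM it was 97.3%, and among 3392 genes under 5 TPM 72.6%. An unadjusted p under 0.05 was reached by 1106 genes (7.97%), 879 higher (6.33%) and 227 lower (1.64%). After rescaling by median ratios the split was 439 higher and 494 lower, and after quantile normalization 443 and 459. The excess of higher calls was therefore not kept under either scaling, and library scale moved with the groups: the median-ratio factors were 0.985, 0.987 and 0.997 for No sEV and 1.009, 1.022 and 1.007 for TIS sEV. Protein-coding genes (12049 tested) had a median of 0.031, antisense genes (399) 0.052 and long intergenic noncoding genes (401) 0.028.

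**Figure D4:**
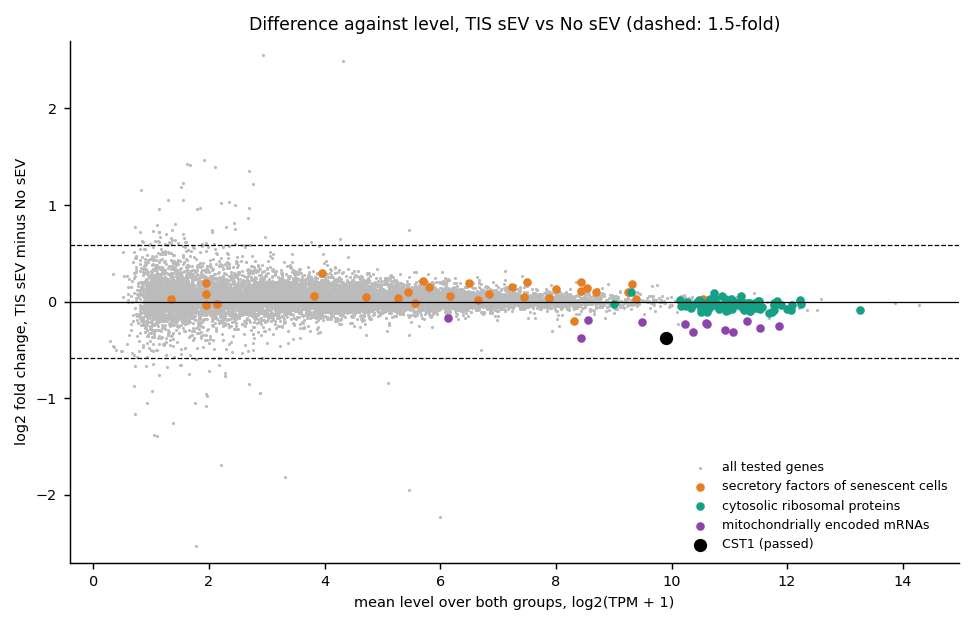
Log2 fold change, TIS sEV minus No sEV (vertical axis), against mean level over both groups on the log2(TPM + 1) scale (horizontal axis), 1 point per tested gene, with 3 lists in colour, CST1 in black and a 1.5-fold change dashed. The spread is narrower at higher levels, CST1 lies at -0.38, and the mitochondrially encoded mRNAs lie from -0.37 to -0.17.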

How the data were processed

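Transcript levels of the recipient cells were taken from gene-level TPM that the authors deposited as 1 table of 60719 genes and 9 libraries, all of whose columns were used. Per the submitters' processing notes, Salmon 1.4.0, Trim Galore 0.6.6, FastQC 0.11.9 and DESeq2 1.28.0 were used on GRCh38.p13. The annotation's release was not given in those notes. Read depth cannot be recovered from TPM and is unknown, and no count model was applied. Salmon divides reads of similar transcripts by estimate, which makes the levels of near-identical genes uncertain.

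The labels gave each library its group and replicate number. Genes that reached 1 TPM in 3 or more of the 9 libraries (13879) were transformed to log2(TPM + 1), which understates fold changes of low genes. A linear model of 3 group means with a variance trend was fitted to the 9 libraries in limma 3.58.1 (R 4.3.3), and its two-sided p-values received Benjamini-Hochberg adjustment across every tested gene, with a threshold of 0.05. A list is described by counts of members and its median log2 fold change, with no test. Gene symbols were matched for 99.5% of genes and coordinates come from GENCODE 29 on GRCh38. Promoters are from RefSeq. Figures were drawn with matplotlib 3.10.9.

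The comparison, the lists and the rule for named genes were chosen with earlier results of these data known. The rule took genes that passed, the 12 higher and 12 lower of smallest p at a mean of at least 5 TPM without overlap, the 5 highest and 5 lowest fold changes with unadjusted p under 0.05, in each list the 4 or fewer of smallest p, and a fixed set; not all of them are printed, and some items are not reported here. Named outside it, after their values were seen, were CTSL, CTSB, PRSS3, F2RL1, PLAUR, TFPI2, CXCL2, CXCL3, IL1B, LIF, IL11, CSF3, INHBA, RELA, NFKB1, NFKBIA, FOS, EGR1, DUSP6, EGFR, TEAD4, YAP1, BMP4, BMPR1A, ID1, AHR, GADD45B, GLB1, IFITM3, HSPA8, FN1, CD63, GINS2, ENSG00000235959 and RPS26P19. The fit was repeated with each library left out, with only the 6 libraries compared, with library weights, with a constant prior variance and with the replicate number as a block. It was also repeated without mitochondrially encoded genes, after quantile or median-of-ratios scaling, and under other filters and pseudocounts.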

Additional observations from a re-analysis of the deposited data

Results flagged for a closer look

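For 10 of 79 genes followed, the effect of TIS sEV and that of Cont sEV, each measured against No sEV, differed. This is by limma's test of TIS sEV against Cont sEV with Benjamini-Hochberg adjustment over all tested genes. Most of the 79 were chosen by their p in TIS sEV against No sEV. The share over all tested genes is not given here, so the count of 10 does not measure how common such differences are. Both effects share the No sEV libraries, and the test uses the TIS sEV libraries described above, so it adds no independent support. The log2 difference, TIS sEV minus Cont sEV, was -0.54 for PRSS2, -0.47 for CST1, -0.46 for CST4, -0.27 for CSF1 and -0.26 for MARCKSL1. It was 0.51 for KRTAP2-3, 0.30 for PAWR, 0.28 for NOG, 0.23 for F3 and 0.18 for ANKRD1. In CST1, CST4, PRSS2, CSF1 and MARCKSL1 the order of the means was TIS sEV, No sEV, Cont sEV from low to high, and in the other 5 TIS sEV was above both.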

How the results depend on the processing

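CST1 passed in every alternative except a constant prior variance, where 0 genes passed (limma; 1025 at unadjusted p under 0.05, and CST1 at adjusted p = 0.0731). The number of genes passing was 9 with no filter on low values (28114 genes) and 2 with only the 6 libraries compared. The 9 were CST1, PRSS2 (limma, adjusted p = 0.0497), TIPARP (0.01935), TSEN15P1, IFITM3P1 and entries without a gene symbol. Leaving out single libraries gave 1 to 2 genes, 2 without TIS sEV replicate 2, TIS sEV replicate 3 or Cont sEV replicate 2. RPS26P19 was the added gene with the 6 libraries and without Cont sEV replicate 2. Genes with an interval within a 1.5-fold change numbered 25716 with no filter. With the replicate block 1 gene passed, and the block changed no call; same-numbered deviations correlated at 0.168, 0.013 and -0.048, so the numbers were not taken as pairs. Among 79 genes followed, direction changed for CST7 (-0.0441 to 0.204 with single libraries left out, lowest without TIS sEV replicate 1), CXCL8 (-0.00715 when rescaled by median ratios, -0.0151 to 0.063 with libraries left out, lowest without No sEV replicate 3) and LMNB1 (-0.00571 when rescaled by median ratios, -0.00102 under quantile normalization, -0.0107 to 0.0654 with libraries left out, lowest without No sEV replicate 2). Printed genes outside these 79 are not covered, and those with a log2 fold change near 0 can change direction too. CTSL (0.0048) and CTSB (0.0072) were among them, and most cathepsin genes of higher mean turned lower under rescaling by median ratios. Of the list medians recomputed, 91 of 819 moved by more than the spread between libraries. The 819 count each list once per alternative, and several alternatives, such as the replicate block and the constant prior variance, cannot change a fold change. Rescaling by median ratios moved the medians of 31 lists and quantile normalization those of 27, in each case most of the lists, so list medians depended on library scale. Depth is unknown, and for genes under 5 TPM the median 95% interval reached 0.325 to each side on the log2 scale, so smaller differences were mostly not detectable there.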
